A study of Mus musculus with 30 samples.

Results

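Genes of DNA replication and cell division were followed in 2 regions of the mouse brain after an inflammatory challenge. They are 49 genes, chosen by name for what their products do and matched by symbol, of 48820 genes in the count table, and all 49 were found. The choice was made with earlier results of these data known, so the shares called below are not an independent test of the set. By role, 12 belong to origin licensing and the replicative helicase, 5 are polymerases, the sliding clamp, the flap nuclease and the ligase, and 5 supply nucleotides. A further 4 assemble chromatin or copy DNA methylation, 6 are Cdk1 and cyclins of the A, B and E types, 4 are transcription factors and 13 act in mitosis.

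A cell that is about to divide first licenses its replication origins, when CDC6 and CDT1 help to load the ring of MCM2 to MCM7 onto DNA. In S phase CDC45 and the GINS proteins turn that ring into the working helicase, and polymerases, the clamp PCNA and DNA ligase 1 copy the strands, while transcription factors of the E2F family switch on many of the genes needed. Mitotic genes follow later in the cycle, driven by CDK1 with its B-type cyclins, Aurora and Polo kinases. In the adult brain neurons do not divide, and the cells known to do so are mainly progenitors of the dentate gyrus and the subventricular zone, oligodendrocyte precursors and, after an insult, microglia.

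The mice were adult male C57BL/6J, an inbred laboratory strain, wild type, 8 to 12 weeks old per the labels and housed alone. Every group had been given the same exposures, made to model the stress and toxicants of Gulf War Illness. Corticosterone (CORT), the main stress hormone of rodents, was supplied at 200 mg/L in water with 0.6% ethanol for 7 days. Diisopropyl fluorophosphate (DFP), an organophosphate that blocks acetylcholinesterase, was injected at 4 mg/kg on day 8, and CORT was then given for 7 days of every other week until week 5. The mice then received saline, or lipopolysaccharide (LPS), a bacterial outer-membrane component that sets off systemic inflammation, at 0.5 mg/kg under the skin. Hippocampus and frontal cortex were taken 6 h after saline (n = 3 per region) and 6, 12 or 24 h after LPS (n = 4 per region and time). Unexposed mice were not analysed here, and saline was sampled at 6 h alone, so treatment and hour of collection cannot be told apart in the comparisons of 12 h and 24 h with saline. For the same reason, time since LPS and hour of collection cannot be told apart between the LPS groups.

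The 30 libraries came from 16 mice, of which 14 gave both regions, and held 16826882 to 33034295 counts. Markers of the hippocampus summed to 1029 CPM (counts scaled by library size) in hippocampal and 251.9 CPM in cortical saline libraries, and markers of the frontal cortex to 368.1 and 1286 CPM, as the labels say. Choroid plexus genes, which come from a tissue beside the hippocampus, were high in the hippocampal libraries of mouse A222 (saline) and mouse A261 (LPS 12 h), with the transthyretin gene Ttr at 0.115% and 0.2257% of counts, and their sum was 1077 CPM in the cortical saline library of mouse A224. Reads of some members may have been mixed with those of a gene whose exons overlap theirs on the opposite strand, since the strand setting of the counting is not known. This holds for Ccna2, Ccne2, Cdc20, Cdc45, Chaf1a, Fen1, Gins2, Mcm7, Lig1 (5305 reads, beside 9395 for Zswim9) and Tk1 (336, beside 230 for Afmid), and on the same strand for Foxm1. Ccnb2, with 225 reads, has a copy with 2498. Below, "called" means an adjusted p under 0.05 in edgeR's quasi-likelihood test, adjusted over all genes tested. Log2 fold changes are given with their standard error. Where a group's libraries are listed, they stand in the order of the mouse codes: A222 (hippocampus) or A223 (cortex), A224 and A226 for saline, A240 to A243 for 6 h, A258 to A261 for 12 h, and A274, A275, A276 and A278 for 24 h. In whole tissue, more cells of a type and more RNA per cell cannot be told apart, which holds for every value that follows.

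After saline the members differed widely in level. Per kilobase of exon, Pcna was highest in both regions after saline, at 16.4 CPM per kb in hippocampus and 18.4 in frontal cortex, followed by Dut, whose product removes dUTP, at 10.6 and 10.8. The lowest were Ccnb1 (cyclin B1) at 0.0115 and Bub1, a spindle checkpoint kinase, at 0.0134 in hippocampus, and Aurkb (Aurora kinase B) at 0.0128 and Bub1 at 0.0149 in cortex. The low end of this order rested on 3 to 9 reads over 3 libraries, and whether neighbours there differ was not tested. A filter on low counts asked for the level of 10 reads in a library of median size (0.416 CPM in hippocampus, 0.483 in cortex). This level had to be met in as many libraries as the smallest group holds. The filter left 44 members for testing in hippocampus, without Cdk1, Ccnb1, Ccnb2, Bub1 and Aurkb, and 45 in cortex, without Cdk1, E2f8, Bub1 and Aurkb.

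In the hippocampus 24 h after LPS, 17 of the 44 tested members were called higher and none lower, a share of 38.6% where 6.76% of all genes tested were called higher. Their median log2 fold change was 0.39, against -0.0025 for all genes, and 39 of 44 were above 0. Some members reached the filter only through their 24 h libraries, among them Top2a and E2f8, so the 44 lean toward genes that are high there. The list was also chosen with earlier results of these data known. With no filter, over all 49, 21 were called higher, the median was 0.43 and 42 were above 0. In the chart of log2 fold changes, 12 of the 17 called members are helicase, polymerase or chromatin genes, and 2 are among the 11 tested mitotic genes. With the mouse as a block 14 were called, without Cdc6 (adjusted p 0.07316), Ccne2 (0.06059) and E2f8 (0.07253). Within a region, here and below, the block was a limma-voom fit of both regions' libraries that lets those of a mouse correlate. It differs from the main fit in test, pooling and filter too, so changed calls cannot be credited to the block alone.

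**Figure D1:**
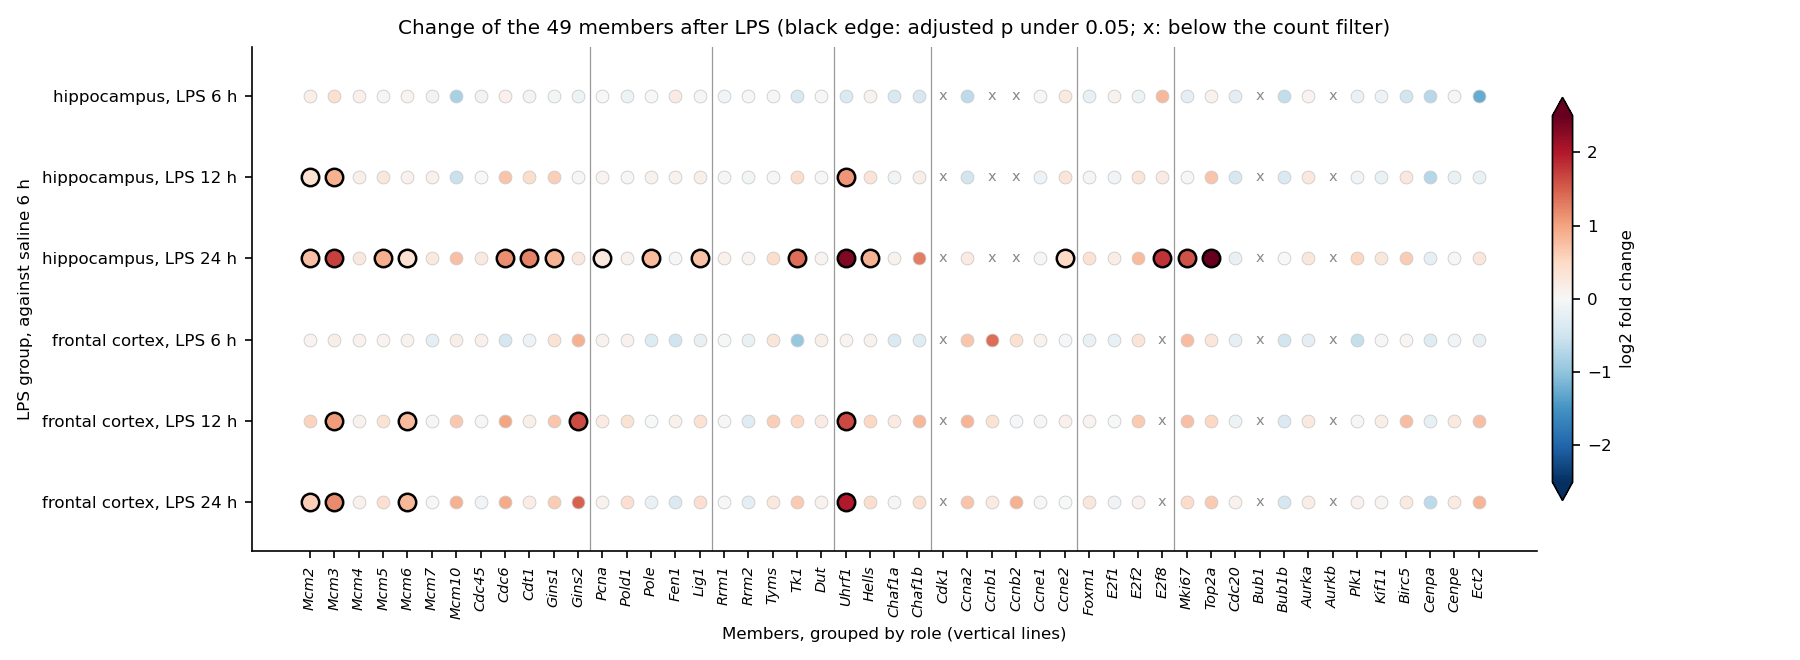
Log2 fold change of each of the 49 members (grouped by role) in the 6 comparisons of LPS with saline, as dot colour; a black edge marks an adjusted p under 0.05 and an x a member below the count filter. The hippocampus at 24 h holds 17 black edges and the frontal cortex 4 at 12 h and 4 at 24 h.

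Licensing and helicase genes were called in 7 of 12 cases, with a median of 0.74 and all 12 above 0. Mcm3 (chr1:20802968-20820312 on GRCm38, minus strand), a subunit of the MCM ring, stood at 1.59, 1.81 and 2.65 CPM after saline, 2.57, 2.62, 3.26 and 2.299 at 6 h, 3.69, 3.97, 3.64 and 3.51 at 12 h and 7.46, 6.32, 4.99 and 7.6 at 24 h. Every 24 h library was above every other hippocampal library, and the 12 h libraries were above all saline and 6 h libraries. The log2 fold change was 1.71 ± 0.18 at 24 h (adjusted p 2.9e-07) and already 0.88 ± 0.18 at 12 h (adjusted p 0.00166).

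Mcm5 (chr8:75109569-75128439, plus strand) measured 4.92, 4.46 and 5.38 CPM after saline, 5.52, 4.92, 5.05 and 4.87 at 6 h, 6.34, 6.803, 5.56 and 5.43 at 12 h and 9.98, 8.97, 7.55 and 10.3 at 24 h. Its 24 h libraries did not overlap any other group, and the difference from saline was 0.90 ± 0.12 (adjusted p 8.5e-06). Mcm2 measured 4.78, 4.87 and 5.03 CPM after saline, 6.77, 4.71, 5.097 and 4.81 at 6 h, 5.92, 6.65, 6.93 and 6.33 at 12 h and 9.35, 7.25, 8.13 and 8.05 at 24 h. The 24 h libraries were all above the 12 h ones, while 1 library at 6 h (mouse A240) reached the 12 h level, and the change was 0.74 ± 0.12 at 24 h (adjusted p 0.000138).

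For Mcm6 the libraries read 13.7, 15.1 and 13.9 CPM after saline, 17.2, 13.1, 14.7 and 14.4 at 6 h, 16.7, 13.4, 14.4 and 16.9 at 12 h and 17.6, 19.4, 17.5 and 19.8 at 24 h. The 24 h group was the highest by a narrow margin, with a change of 0.38 ± 0.09 (adjusted p 0.00585). The remaining ring subunits Mcm4 (0.26 ± 0.10, adjusted p 0.0944) and Mcm7 (0.25 ± 0.09, adjusted p 0.0807) were not called.

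Cdt1, the loading factor, read 1.14, 0.647 and 0.883 CPM after saline, 0.908, 0.7501, 0.969 and 0.695 at 6 h, 1.14, 1.19, 1.68 and 0.776 at 12 h and 2.13, 1.53, 2.15 and 2.59 at 24 h. All 24 h libraries were above saline and 6 h, and 1 library at 12 h (mouse A260) overlapped them, with a change of 1.23 ± 0.25 at 24 h (adjusted p 0.00129). The other loader, Cdc6, changed by 1.16 ± 0.35 (adjusted p 0.0261) and the GINS subunit Gins1 by 0.88 ± 0.27 (adjusted p 0.0311). Both calls were lost when the library of mouse A222, A226, A275 or A278 was left out, with adjusted p reaching 0.1731 and 0.1525 over all alternatives. Gins2 gave 1.87, 2.11 and 1.57 CPM after saline, 2.19, 2, 1.12 and 1.39 at 6 h, 1.66, 1.59, 1.996 and 2.16 at 12 h and 2.42, 2.37, 2.02 and 2.14 at 24 h, and its 24 h and saline libraries overlapped (0.27 at 24 h, adjusted p 0.45).

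Among the 5 polymerase, clamp, flap nuclease and ligase genes, 3 were called. Lig1, DNA ligase 1, which seals the pieces of the lagging strand, measured 5.92, 5.62 and 4.92 CPM after saline, 5.94, 5.92, 5.35 and 5.13 at 6 h, 5.45, 7.15, 5.21 and 6.57 at 12 h and 10.2, 8.51, 9.03 and 8.65 at 24 h. The 24 h libraries stood above all others, by 0.73 ± 0.12 over saline (adjusted p 9.46e-05). Pole, the catalytic subunit of the leading-strand polymerase, went from 1.11 ± 0.19 CPM (SD, n = 3) to 1.93 ± 0.19 (n = 4), a change of 0.79 ± 0.20 (adjusted p 0.00738).

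Pcna, the sliding clamp and the most abundant member, read 37.1, 38.9 and 42.4 CPM after saline, 37.2, 41.2, 40.6 and 38.7 at 6 h, 45.4, 36.6, 40.5 and 42.4 at 12 h and 47.5, 45.8, 49.6 and 47.7 at 24 h. Its 24 h libraries were above all saline libraries by a small amount, 0.27 ± 0.07 (adjusted p 0.0057), and the adjusted p was 0.05129 without the libraries of mice A222 and A261, the highest of its alternatives, which began at 0.001355. A processed copy, Pcna-ps2, held 4769 reads beside 29985 for Pcna over all libraries, so how reads of the 2 were divided bears on this value. Pold1 (0.10, adjusted p 0.651) and the flap nuclease Fen1 (-0.04, adjusted p 0.96) were not called.

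Of the 5 nucleotide supply genes only Tk1, thymidine kinase 1, was called. It read 0.451, 0.273 and 0.461 CPM after saline, 0.227, 0.25, 0.306 and 0.428 at 6 h, 0.415, 0.695, 0.391 and 0.653 at 12 h and 1.36, 1.02, 0.701 and 1.09 at 24 h. The 24 h libraries were above all others, narrowly so for mouse A276, and the change was 1.39 ± 0.31 (adjusted p 0.00313). Rrm2, the S-phase subunit of ribonucleotide reductase, read 0.762, 1.16 and 1.19 CPM after saline, 1.097, 0.875, 0.765 and 1.34 at 6 h, 0.831, 0.993, 1.06 and 1.02 at 12 h and 1.65, 0.651, 0.825 and 1.23 at 24 h. These groups overlapped throughout, and the change at 24 h was 0.06 ± 0.28 (adjusted p 0.921). Thymidylate synthase, Tyms, at 2.01, 1.29 and 1.69 CPM after saline, 1.51, 1.92, 1.73 and 1.28 at 6 h, 1.61, 1.64, 1.72 and 1.75 at 12 h and 2.62, 1.81, 2.48 and 2.14 at 24 h, was above saline in 3 of 4 libraries at 24 h (0.44, adjusted p 0.138). Rrm1 (0.13) and Dut (0.07) were not called either.

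The chromatin genes had the highest median of the groups, 1.08, with 2 of 4 called. Uhrf1 (chr17:56303321-56323486, plus strand), which brings the maintenance methyltransferase to newly copied DNA, read 0.5198, 0.273 and 0.538 CPM after saline, 0.454, 0.167, 0.5097 and 0.214 at 6 h, 1.09, 0.894, 0.861 and 0.9797 at 12 h and 2.47, 1.77, 2.02 and 2.78 at 24 h. The 12 h libraries were above all saline and 6 h libraries and the 24 h libraries above all of those, at 1.10 ± 0.31 (adjusted p 0.0201) and 2.34 ± 0.28 (adjusted p 2.67e-06). Hells, a chromatin remodeller of the same pathway, read 1.25, 1.74 and 1.92 CPM after saline, 1.51, 2.08, 1.83 and 1.497 at 6 h, 1.97, 1.84, 1.92 and 2.49 at 12 h and 2.37, 2.93, 3.26 and 3.41 at 24 h. It was 0.88 ± 0.19 higher at 24 h (adjusted p 0.00224), with 1 library at 12 h (mouse A261) inside the 24 h range. Chaf1b, a subunit of the histone chaperone CAF-1, had 19 reads over the saline libraries and 49 at 24 h, a ratio of pooled counts per total of 2.54 (95% interval 1.47 to 4.57, counting error only), and an adjusted p of 0.0569.

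**Figure D2:**
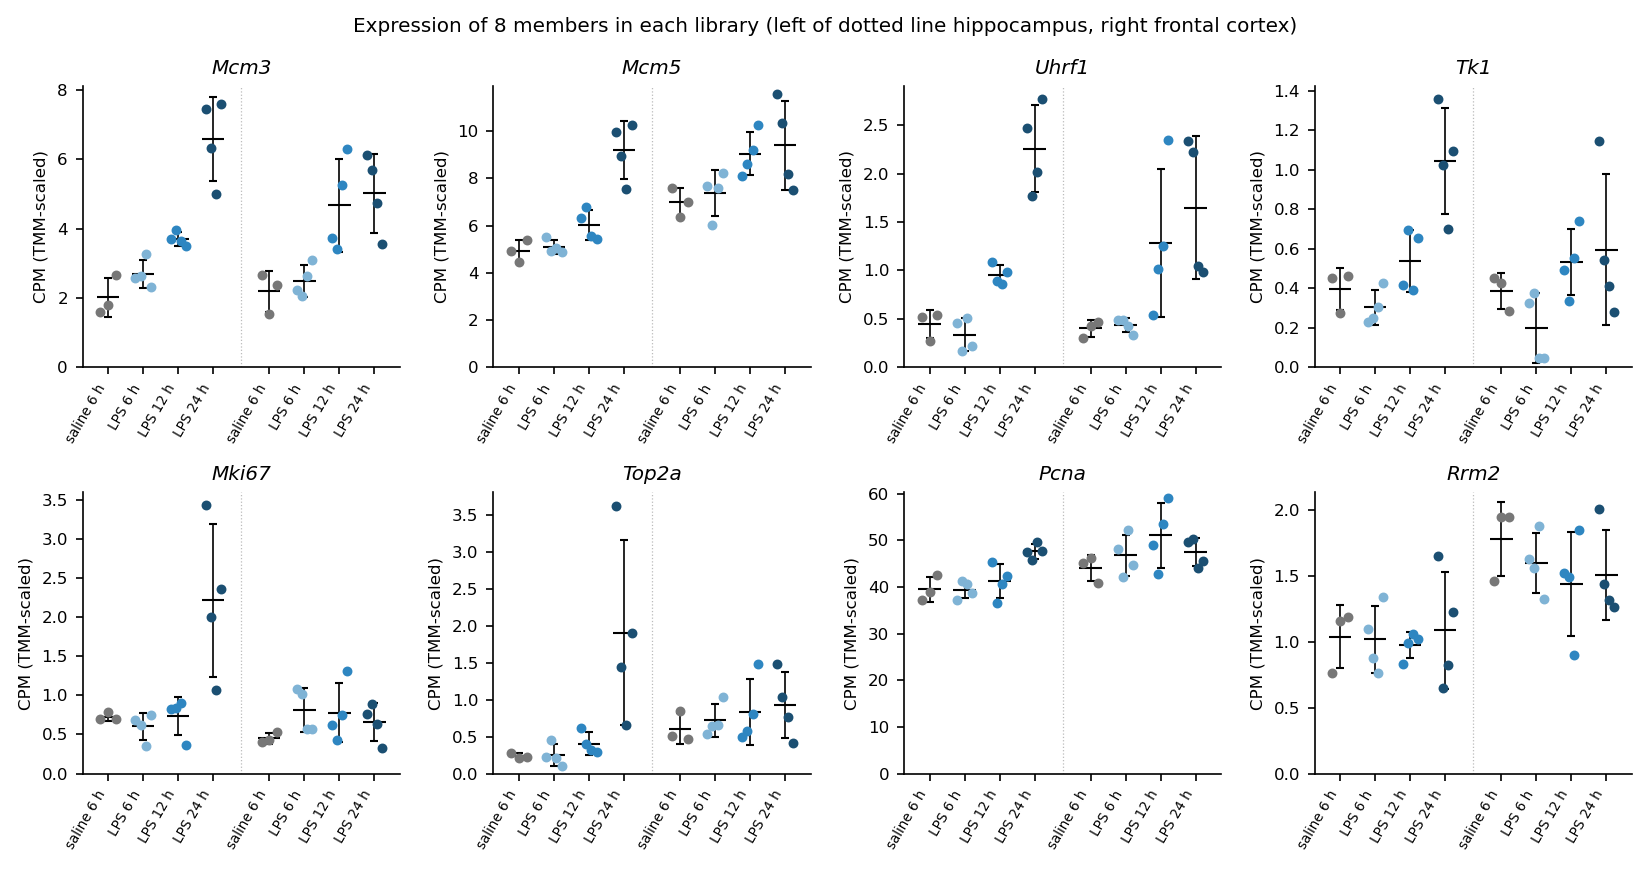
CPM of 8 members in every library (points) with the group mean and SD (bars), for saline and 3 times after LPS in hippocampus and frontal cortex. In hippocampus the 24 h points of Mcm3, Mcm5, Uhrf1, Tk1, Mki67 and Top2a lie above all other groups, whereas those of Rrm2 overlap saline.

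Of the 11 tested genes of mitosis 2 were called. Mki67 (chr7:135689784-135716361, minus strand), which encodes the proliferation marker Ki-67, read 0.693, 0.784 and 0.691 CPM after saline, 0.681, 0.625, 0.357 and 0.749 at 6 h, 0.831, 0.844, 0.9001 and 0.367 at 12 h and 3.44, 1.999, 1.07 and 2.37 at 24 h. All 24 h libraries were above every other library, over a wide range with mouse A274 highest and A276 lowest, and the change was 1.60 ± 0.32 (adjusted p 0.00133), or 1.31 without A274 (adjusted p 0.005993, with 8.142e-08 to 0.01047 over all alternatives). Top2a (chr11:98992943-99024189, minus strand), the topoisomerase that untangles replicated chromosomes, read 0.277, 0.204 and 0.231 CPM after saline, 0.227, 0.458, 0.204 and 0.107 at 6 h, 0.623, 0.397, 0.313 and 0.286 at 12 h and 3.63, 1.44, 0.66 and 1.91 at 24 h. The order of the 24 h libraries was the same as for Mki67, and the change was 2.96 ± 0.51 (adjusted p 0.00046), or 2.46 without A274 (adjusted p 0.0002921, with 4.557e-16 to 0.009572 over all alternatives).

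The other 9 tested mitotic genes were not called, with Plk1 (Polo-like kinase) at 0.53 (adjusted p 0.345), Birc5 (survivin) at 0.63 (adjusted p 0.351) and Cdc20, an activator of the anaphase ligase, at -0.18. Cenpe, a kinetochore motor, read 1.87, 2.56 and 1.805 CPM after saline, 1.82, 2.12, 2.29 and 1.82 at 6 h, 2.54, 1.49, 1.84 and 1.63 at 12 h and 1.502, 2.42, 2.35 and 2.09 at 24 h, and its groups overlapped (0.01 at 24 h). The 13 genes summed to 11.3 CPM after saline, 9.25 at 6 h, 10.3 at 12 h and 15.9 at 24 h.

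The 5 genes below the filter in hippocampus are given as raw reads. Cdk1, the kinase that starts mitosis, had 5, 2 and 2 reads after saline, 1, 0, 1 and 3 at 6 h, 3, 2, 1 and 2 at 12 h and 19, 10, 8 and 5 at 24 h. In raw reads mouse A278 at 24 h tied with saline mouse A222. In CPM the 24 h libraries stood at 0.228 to 0.921, above all others, which reached at most 0.173. The pooled ratio was 4.59 (95% interval 2.2 to 10.7). Aurkb had 2, 3 and 1 reads after saline, 4, 1, 0 and 0 at 6 h, 0, 1, 3 and 1 at 12 h and 19, 4, 7 and 10 at 24 h, with a pooled ratio of 6.56 (2.77 to 18.9) at 24 h. Bub1 went from 5 reads over saline to 23 at 24 h, a ratio of 4.53 (1.68 to 15.3), or 7.39 without saline mouse A224. Ccnb1 went from 4 to 23, a ratio of 5.66 (1.93 to 22.5), or 3.73 without saline mouse A222. At 6 h and 12 h the intervals of these 4 genes all included 1. They cover counting error and not the spread between mice. Ccnb2 (cyclin B2), also below the filter, had 11, 11 and 9 reads after saline, 1, 3, 7 and 3 at 6 h, 3, 6, 13 and 8 at 12 h and 3, 8, 2 and 9 at 24 h. It had 31 reads over saline and 22 at 24 h. Scaled by library size it read 0.381, 0.375 and 0.346 CPM after saline and 0.145, 0.372, 0.083 and 0.410 at 24 h. These groups overlapped, with mouse A278 at 24 h above all saline libraries.

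**Figure D3:**
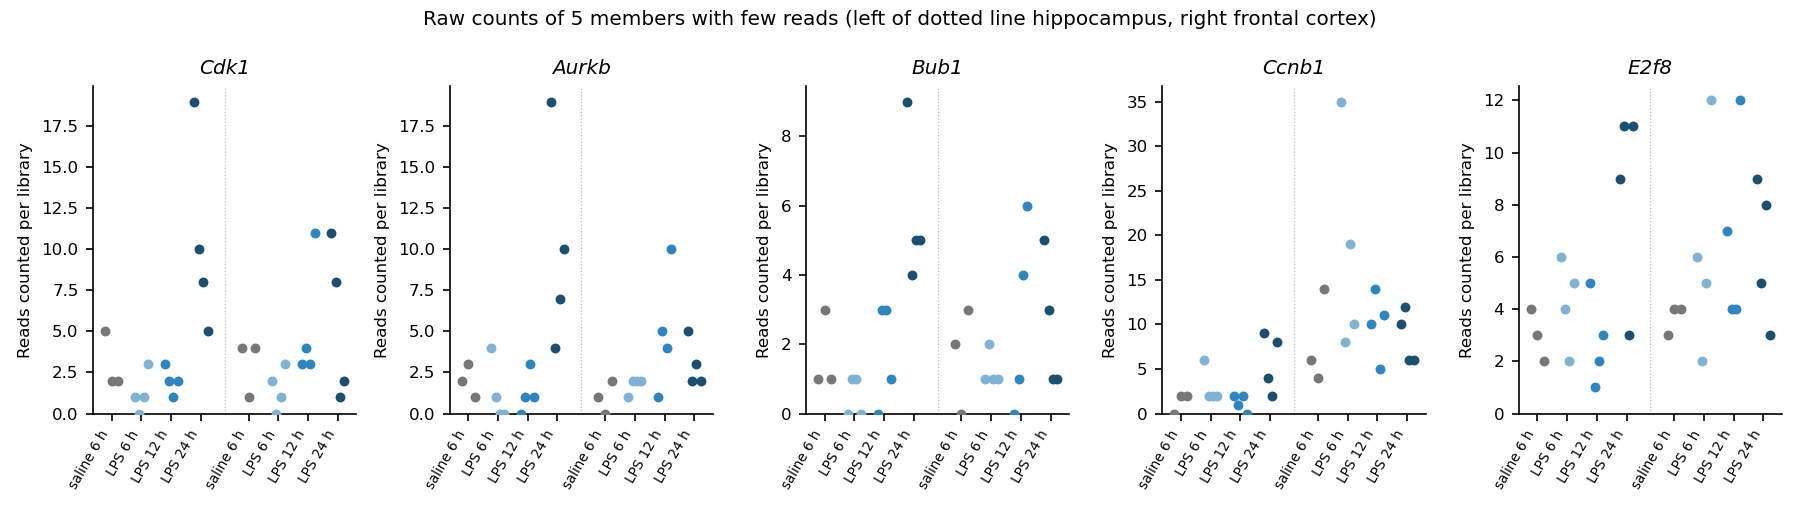
Raw reads per library of 5 members with few reads (Cdk1, Aurkb, Bub1, Ccnb1, E2f8) for saline and 3 times after LPS, in both regions. In hippocampus the highest libraries of Cdk1 and Aurkb are at 24 h, with 19 reads each in mouse A274.

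Of the cyclins tested in hippocampus, Ccne2 (cyclin E2) was called at 0.50 ± 0.13 (adjusted p 0.0125) and lost without saline mouse A222, while Ccne1 (-0.04) and Ccna2 (0.23) were not called. Among the transcription factors E2f8, a repressor of the family, was called at 1.81 ± 0.54 (adjusted p 0.0265) on 9 reads over saline and 34 at 24 h, and lost when any 1 of the saline mice was left out. It met the filter's level in 3 of the 24 h libraries and in no other hippocampal library. With a library left out it was therefore tested in only 4 fits and kept its call in 1. E2f1, an activator, read 6.999, 5.62 and 6.45 CPM after saline, 5.79, 6.88, 6.73 and 7.75 at 6 h, 6.08, 5.91, 6.61 and 5.39 at 12 h and 7.27, 7.07, 7.14 and 7.51 at 24 h. Its 24 h libraries were just above all saline libraries but within the range of the 6 h ones, at 0.19 (adjusted p 0.299). E2f2 (0.79 ± 0.27, adjusted p 0.0582) and Foxm1 (0.39, adjusted p 0.427) were not called.

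Promoters of 5 members that the results turn on are shown, read from the RefSeq table on GRCm38.p6, from 250 bases before to 50 after the annotated start. Capitals mark matches on either strand to E2F sites (TTTCCCGC, TTTGGCGC, TTTGCCGC, TTTCGCGC), to the CHR element of late cell cycle promoters (TTTGAA, or TTCGAA in its variant form) and to the CCAAT box of the factor NF-Y. Mcm3 (chr1:20820263-20820562, minus strand) holds 2 E2F matches, at 19 and 38 from the start counted as 0. Mcm5 (chr8:75109259-75109558, plus) holds 2 that overlap, at -153 and -149, and Mcm6 (chr1:128359656-128359955, minus) holds 3, at -110, -106 and -47, of which the first pair overlap. Uhrf1 has a window at each of 2 annotated starts. The first (chr17:56303087-56303386, plus) holds 3 CCAAT matches and no E2F or CHR match, and the second, given here (chr17:56304063-56304362, plus), holds 1 E2F match at -185. Top2a (chr11:99024140-99024439, minus) holds none, but 4 CHR matches at -179, -140, -120 and -23 and 6 CCAAT matches.
Mcm3: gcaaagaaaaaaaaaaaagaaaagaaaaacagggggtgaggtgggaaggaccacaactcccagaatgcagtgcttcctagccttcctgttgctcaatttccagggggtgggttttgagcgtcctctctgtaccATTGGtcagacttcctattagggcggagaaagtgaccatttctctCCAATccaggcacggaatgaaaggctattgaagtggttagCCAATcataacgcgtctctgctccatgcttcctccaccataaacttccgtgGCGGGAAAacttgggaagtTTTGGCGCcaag
Mcm5: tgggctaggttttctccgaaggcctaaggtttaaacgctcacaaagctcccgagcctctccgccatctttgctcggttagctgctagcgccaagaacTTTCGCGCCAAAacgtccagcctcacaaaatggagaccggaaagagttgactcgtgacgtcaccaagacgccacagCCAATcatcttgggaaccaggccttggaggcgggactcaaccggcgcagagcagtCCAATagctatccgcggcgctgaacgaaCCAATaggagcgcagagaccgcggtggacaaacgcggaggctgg
Mcm6: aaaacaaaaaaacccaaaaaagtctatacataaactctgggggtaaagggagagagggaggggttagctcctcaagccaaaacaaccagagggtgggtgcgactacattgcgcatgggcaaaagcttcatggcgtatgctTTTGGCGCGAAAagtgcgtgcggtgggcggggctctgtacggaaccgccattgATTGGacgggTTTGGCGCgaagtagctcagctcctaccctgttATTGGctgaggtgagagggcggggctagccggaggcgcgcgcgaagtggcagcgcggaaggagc
Uhrf1: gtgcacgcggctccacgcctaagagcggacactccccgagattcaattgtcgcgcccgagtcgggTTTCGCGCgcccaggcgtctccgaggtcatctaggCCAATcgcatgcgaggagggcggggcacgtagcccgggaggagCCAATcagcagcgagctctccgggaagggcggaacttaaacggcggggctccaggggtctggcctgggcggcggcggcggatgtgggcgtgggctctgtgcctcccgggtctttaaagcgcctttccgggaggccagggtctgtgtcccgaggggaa
Top2a: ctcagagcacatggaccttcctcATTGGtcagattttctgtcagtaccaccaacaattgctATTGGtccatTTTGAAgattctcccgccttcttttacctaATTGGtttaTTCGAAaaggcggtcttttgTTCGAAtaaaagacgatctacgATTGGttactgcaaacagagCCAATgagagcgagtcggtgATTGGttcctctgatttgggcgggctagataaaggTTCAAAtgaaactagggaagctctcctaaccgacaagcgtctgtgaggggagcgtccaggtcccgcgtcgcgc

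RefSeq windows were found for 41 of the 49 members, 48 windows in all, and a gene is counted when any of its windows holds the motif. An E2F match was found for 12 of them (29.3%), against 575 of 17492 protein-coding genes (3.29%). Of the 14 members with a window that were called in hippocampus at 24 h, 8 had one (57.1%), and of the other 27, 4 had one (14.8%). CHR matches ran the other way, in 4 of 14 (28.6%) and 14 of 27 (51.9%), with 20.2% of all genes. CCAAT was found in 64.3% and 70.4%, with 42.3% of all genes. Median GC content was 63.0% and 57.7% in the called and other members and 56.3% in all genes. These are matches of letters, not measured binding.

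The comparison of 24 h with 6 h after LPS holds no saline library, though saline libraries helped to set the spread in its fit. Time since LPS and hour of collection cannot be told apart in it. Here 22 of 44 members were called higher in hippocampus (50%, against 4.57% of all genes), none lower, with a median of 0.60. All 4 chromatin genes and 9 of 12 helicase genes were among them. Uhrf1 changed by 2.72, Top2a by 2.85, Mki67 by 1.85, Tk1 by 1.79 and Mcm3 by 1.29. Chaf1b (1.69), Mcm10 (1.56), which helps to fire origins, and Ect2 (1.56), which positions the cleavage furrow, were called here but not against saline. These 3 reached the filter only through their 24 h libraries, the group where they are high, since the level it asks for was met in 3, 3 and 4 of the 24 h libraries, in none at 6 h, and in at most 1 library of each other group. With no filter, over all 49, 24 were called. With the mouse as a block 16 were called, and the calls of Mcm6 (adjusted p 0.1091), Mcm10 (0.07083), Cdc6 (0.1131), Pole (0.05049), Rrm1 (0.09793), Chaf1a (0.06124) and Ect2 (0.0799) were lost. With 1 of the 8 compared libraries left out in turn, 14 to 18 were called. Chaf1a and Rrm1 kept their calls in 1 of 8, Mcm10 and Cdc6 in 2, Mcm6 and E2f2 in 3 and Gins1 in 4. The other called members kept theirs in every such fit where they were tested.

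At 6 h no member was called in hippocampus, where 5.11% of all genes were called in either direction. An unadjusted p under 0.05 was found for 5 of 44 members, beside 2515 of all 17289 genes tested. The median of the members was -0.08 and 15 of 44 were above 0. The limma-voom alternative called 3 lower, Chaf1a (-0.44), Cenpa (-0.86) and Ect2 (-1.23). At 12 h, 3 of 44 were called higher (6.82%, against 6.07% of all genes, so a share near the background): Mcm3, Uhrf1 and Mcm2 (0.40 ± 0.12, adjusted p 0.0345). Mcm3 kept its call in every alternative, whereas the call of Mcm2 was lost when any of 6 single libraries was left out, and that of Uhrf1 without saline mouse A224 or LPS mouse A258. The count was 1 without the libraries of mice A222 and A261, and 1 with the mouse as a block, where the adjusted p of Mcm2 was 0.1171 and that of Uhrf1 0.1267 (0.02047 to 0.1411 and 0.007432 to 0.1377 over all alternatives).

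In the frontal cortex no member was called at 6 h, where 3.5% of all genes were called in either direction. At 12 h and at 24 h 4 of 45 members were called higher (8.89% each, against 4.13% and 3.73% of all genes), with medians of 0.25 and 0.23. Some members reached the filter only through their 12 h and 24 h libraries, among them Uhrf1, Tk1, Chaf1b and Ect2. The 45 therefore lean toward genes that are high there. With no filter it was 5 of 49 at each time, and with the mouse as a block 7 and 6 were called. The called genes were Mcm3, Mcm6, Gins2 and Uhrf1 at 12 h, and Mcm2, Mcm3, Mcm6 and Uhrf1 at 24 h.

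Cortical Mcm3 read 2.67, 1.52 and 2.38 CPM after saline, 2.22, 2.04, 2.63 and 3.08 at 6 h, 3.73, 3.41, 5.27 and 6.29 at 12 h and 6.12, 5.69, 4.73 and 3.55 at 24 h. All 12 h and 24 h libraries were above all saline and 6 h libraries, by 1.07 ± 0.24 (adjusted p 0.00992) and 1.17 ± 0.24 (adjusted p 0.00559) over saline. Cortical Mcm6 read 4.78, 4.86 and 4.89 CPM after saline, 4.602, 5.26, 5.63 and 5.12 at 6 h, 6.69, 6.87, 9.93 and 9.87 at 12 h and 10.2, 10.6, 6.23 and 7.42 at 24 h. Here too the late groups did not overlap the early ones, at 0.78 ± 0.18 (adjusted p 0.0121) and 0.83 ± 0.18 (adjusted p 0.00868).

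Cortical Uhrf1 read 0.302, 0.425 and 0.4702 CPM after saline, 0.487, 0.483, 0.422 and 0.332 at 6 h, 0.534, 1.01, 1.25 and 2.34 at 12 h and 2.34, 2.23, 1.04 and 0.9802 at 24 h. The late libraries were all above saline, over a wide range, at 1.65 ± 0.47 (adjusted p 0.0381) and 2.0 ± 0.46 (adjusted p 0.0117). It rested on 28 reads over saline and 138 at 24 h, a pooled ratio of 4.19 (95% interval 2.77 to 6.53). Cortical Mcm2 read 4.47, 4.25 and 4.51 CPM after saline, 4.93, 4.13, 4.69 and 4.88 at 6 h, 5.67, 5.81, 6.67 and 8.27 at 12 h and 8.36, 8.12, 5.95 and 4.71 at 24 h. Its 24 h libraries spread from just above saline to the highest of all, at 0.62 ± 0.18 (adjusted p 0.0487).

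Cortical Gins2 read 0.251, 0.364 and 0.564 CPM after saline, 0.975, 0.698, 0.657 and 0.758 at 6 h, 0.903, 0.625, 1.66 and 1.97 at 12 h and 1.29, 1.88, 0.818 and 0.653 at 24 h. All saline libraries were below every library after LPS, and the change at 12 h was 1.63 ± 0.44 (adjusted p 0.0284) and at 24 h 1.47 ± 0.45 (adjusted p 0.0617). Exons of Gins2 overlap Gse1 on the opposite strand, which held 29314 reads beside 979 for Gins2, and the strand setting of the counting is not known.

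At 24 h Mcm3 and Mcm6 kept their cortical calls with every library left out in turn, Uhrf1 lost its call without saline mouse A223, and Mcm2 kept its call in 1 of 7. At 12 h the count fell to 1 without A223 or without A261, and each of the 4 genes lost its call in at least 1 of the 7. From 6 h to 24 h after LPS, 3 of 45 cortical members were called higher (6.67%, against 0.789% of all genes): Mcm3 (1.0, adjusted p 0.0285), Mcm6 (0.74, adjusted p 0.0317) and Uhrf1 (1.92, adjusted p 0.0278). With the mouse as a block 5 were called. None was called without A240, A242, A274 or A275.

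Several genes called in the hippocampus at 24 h did not pass the test in the cortex. Mki67 read 0.402, 0.425 and 0.533 CPM after saline, 1.08, 1.02, 0.563 and 0.568 at 6 h, 0.616, 0.432, 0.752 and 1.32 at 12 h and 0.765, 0.891, 0.636 and 0.327 at 24 h there. Every 6 h library was above every saline library, while the 12 h and 24 h groups overlapped the others. The change was 0.78 ± 0.41 at 6 h (adjusted p 0.307) and 0.49 ± 0.42 at 24 h (adjusted p 0.657). Top2a read 0.503, 0.8499 and 0.4702 CPM after saline, 0.541, 0.644, 0.657 and 1.04 at 6 h, 0.493, 0.577, 0.803 and 1.48 at 12 h and 1.48, 1.04, 0.773 and 0.4201 at 24 h, also with overlap (0.66 ± 0.43, adjusted p 0.513).

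Mcm5 read 7.59, 6.37 and 7.02 CPM after saline, 7.69, 6.01, 7.604 and 8.24 at 6 h, 8.13, 8.601, 9.23 and 10.3 at 12 h and 11.6, 10.3, 8.18 and 7.51 at 24 h. Mouse A278 at 24 h was inside the saline range, and the change was 0.42 (adjusted p 0.115). Lig1 read 7.69, 8.74 and 8.09 CPM after saline, 7.58, 7.25, 7.04 and 6.87 at 6 h, 8.33, 9.71, 12.4 and 12.3 at 12 h and 13.8, 12.7, 9.54 and 7.66 at 24 h. Mice A258 at 12 h and A278 at 24 h were at the saline level and the other late libraries above it, and neither time was called. Pcna read 45.05, 46.3 and 40.9 CPM after saline, 48.02, 42.1, 52.2 and 44.7 at 6 h, 49.01, 42.7, 53.4 and 59.1 at 12 h and 49.7, 50.2, 44.1 and 45.6 at 24 h, with overlapping groups (0.11 at 24 h, adjusted p 0.683).

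Hells in the cortex measured 1.46, 1.09 and 1.57 CPM after saline, 1.57, 1.66, 1.27 and 1.47 at 6 h, 1.68, 1.49, 2.81 and 2.02 at 12 h and 2.15, 1.93, 2.27 and 1.26 at 24 h. Tk1 measured 0.453, 0.425 and 0.282 CPM after saline, 0.325, 0.376, 0.0469 and 0.0474 at 6 h, 0.493, 0.336, 0.552 and 0.7403 at 12 h and 1.15, 0.545, 0.409 and 0.28 at 24 h, and Tyms measured 0.955, 1.21 and 0.784 CPM after saline, 1.08, 1.29, 1.31 and 1.09 at 6 h, 0.944, 1.59, 1.66 and 1.73 at 12 h and 1.39, 1.39, 0.773 and 1.07 at 24 h. In each of these 3 the 24 h libraries overlapped saline, with 1 or more mice at or below the highest saline value, and none was called.

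Cdt1 in the cortex measured 3.07, 2.43 and 2.41 CPM after saline, 2.49, 2.95, 1.93 and 2.23 at 6 h, 2.05, 2.93, 3.56 and 3.17 at 12 h and 3.06, 3.17, 2.91 and 2.75 at 24 h. Rrm2 measured 1.46, 1.94 and 1.94 CPM after saline, 1.62, 1.56, 1.88 and 1.33 at 6 h, 1.52, 1.49, 0.903 and 1.85 at 12 h and 2.01, 1.44, 1.32 and 1.26 at 24 h, with a change of -0.25 at 24 h. All groups of both genes overlapped saline. E2f1 measured 18.6, 17.7 and 23.2 CPM after saline, 16.4, 17.9, 16.1 and 18.9 at 6 h, 20.4, 19.6, 22.1 and 17.4 at 12 h and 19.7, 17.4, 19.04 and 18.2 at 24 h, and Cenpe measured 0.754, 0.911 and 1.003 CPM after saline, 1.08, 0.751, 0.751 and 0.805 at 6 h, 0.944, 0.817, 1.66 and 0.905 at 12 h and 1.05, 0.941, 1.04 and 1.17 at 24 h. These 4 genes were not called in the cortex at any time.

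Among the sparse genes, cortical Cdk1 had 4, 1 and 4 reads after saline, 2, 0, 1 and 3 at 6 h, 3, 4, 3 and 11 at 12 h and 11, 8, 1 and 2 at 24 h. The pooled ratio at 24 h was 2.08 (95% interval 0.919 to 5.12), and 1.38 without mouse A274. Aurkb had 3 reads over saline and 20 at 12 h, a ratio of 5.38 (1.6 to 28.3), and 12 at 24 h, a ratio of 3.4 (0.917 to 18.8). Without saline mouse A226 these ratios were 8.58 and 5.42. Ccnb1 passed the filter in cortex and was not called at 6 h. It had 72 reads at 6 h against 24 over saline, a pooled ratio of 2.61 (1.62 to 4.33, counting error only). Mouse A240 held 35 of the 72, and the libraries ran from 8 to 35 reads at 6 h and from 4 to 14 after saline.

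The responses of the regions were compared directly, as the difference of the LPS effects in a fit of all 30 libraries. No member of 47 tested was called at 6, 12 or 24 h, where 0%, 0.0963% and 0.125% of all genes were called. Unadjusted p values under 0.05 were found for 2, 5 and 8 of the 47 members, beside 1031, 1744 and 1484 of all 17650 genes tested. The limma-voom alternative called 2 members at 24 h, Mcm5 (0.65) and Cdt1 (1.33). At 24 h the difference was 2.31 ± 0.73 for Top2a (adjusted p 0.391), 1.12 ± 0.57 for Mki67 (adjusted p 0.611), 1.06 ± 0.31 for Cdt1 (adjusted p 0.327) and -1.19 ± 0.48 for Gins2 (adjusted p 0.488), as hippocampus minus cortex. The median of the members was 0.29, with 36 of 47 above 0. At 12 h it was -0.18, with 9 of 47 above 0. Whether the regions differ in their number of called members was not tested.

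**Figure D4:**
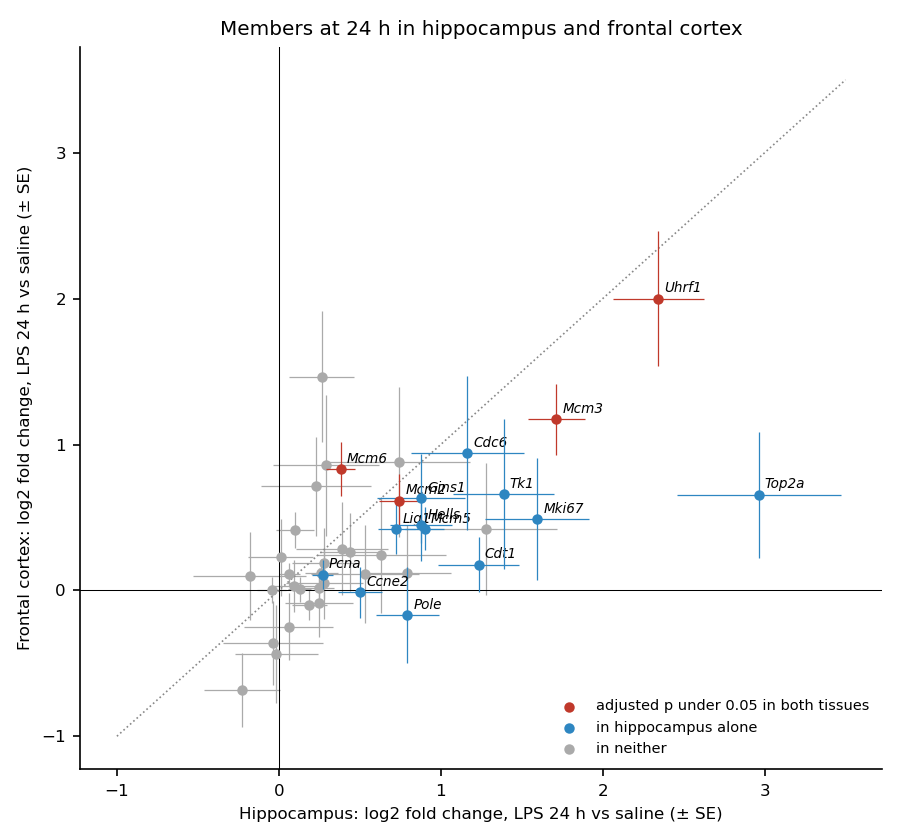
Log2 fold change at 24 h after LPS against saline in hippocampus (x) and frontal cortex (y), 1 point per member tested in both, with standard errors. Mcm2, Mcm3, Mcm6 and Uhrf1 are called in both regions, and Top2a and Mki67 lie far to the right of the line of equal change with wide errors.

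After saline the regions differed in 14 of 47 members. In hippocampus 4 were higher (8.51%, against 19.9% of all genes) and 10 lower (against 17.2% of all genes). Mcm6 was 1.60 higher in hippocampus (adjusted p 1.03e-09), Gins2 2.18 (adjusted p 1.74e-05), Cenpe 1.24 (adjusted p 0.000104) and Tyms 0.83 (adjusted p 0.00592). E2f1 was lower by 1.61 on the log2 scale (-1.61, adjusted p 1.59e-13), and so was Cdt1 (-1.52, adjusted p 6.14e-06). For both, no hippocampal saline library reached the lowest cortical one. The others lower in hippocampus were Ccnb1 (-2.69), Cdc20 (-0.96), Rrm2 (-0.75), Lig1 (-0.53), Ccne2 (-0.52), Mcm5 (-0.47), Mcm7 (-0.33) and Rrm1 (-0.24). With the mouse as a block, here a fixed effect in a fit of the mice that gave both regions, 8 of the 14 were called. That fit left A224 and A226 as the saline mice, so lost calls cannot be credited to the block alone. The calls of Tyms (adjusted p 0.1256), Cdc20 (0.242), Rrm2 (0.08326), Ccne2 (0.2335), Mcm5 (0.0753) and Rrm1 (0.06696) were lost. Over all alternatives the adjusted p of these 6 ran from 0.0003262 to 0.242.

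Marker genes of other cells moved at the same times. The 14 microglia markers, all tested and none at 0, summed to 275.6 to 350.8 CPM in hippocampal saline libraries, 276.6 to 331.6 at 6 h, 371.5 to 412.0 at 12 h and 547.3 to 607.5 at 24 h. Of these, 2, 7 and 13 were called higher at the 3 times, beside 512, 1049 and 1168 of all 17289 genes tested. Csf1r, the receptor for the microglial growth factor CSF1, went from 69.3 to 102.2 CPM and P2ry12, a homeostatic microglial receptor, from 11.5 to 28.1 at 24 h. In the cortex the sum was 287.7 to 351.6 CPM after saline, 404.9 to 739.6 at 12 h and 439.8 to 646.7 at 24 h. There 0, 6 and 7 were called higher at the 3 times, beside 394, 707 and 638 of all 17111 genes tested.

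In the cortex the libraries of mice A260 and A261 at 12 h and A274 and A275 at 24 h had the highest microglia sums (579.3, 739.6, 646.7 and 620.8 CPM). They also had the highest sums of the 12 helicase and licensing genes (68.1 to 70.4 CPM), while the other late cortical libraries lay at 52.4 to 55 and saline at 47.4 to 49.1. In hippocampus these 12 genes summed to 52.6 CPM after saline, 54.2 at 6 h, 60.99 at 12 h and 76.3 at 24 h. The part of microglial RNA in the members' values was not tested.

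**Figure D5:**
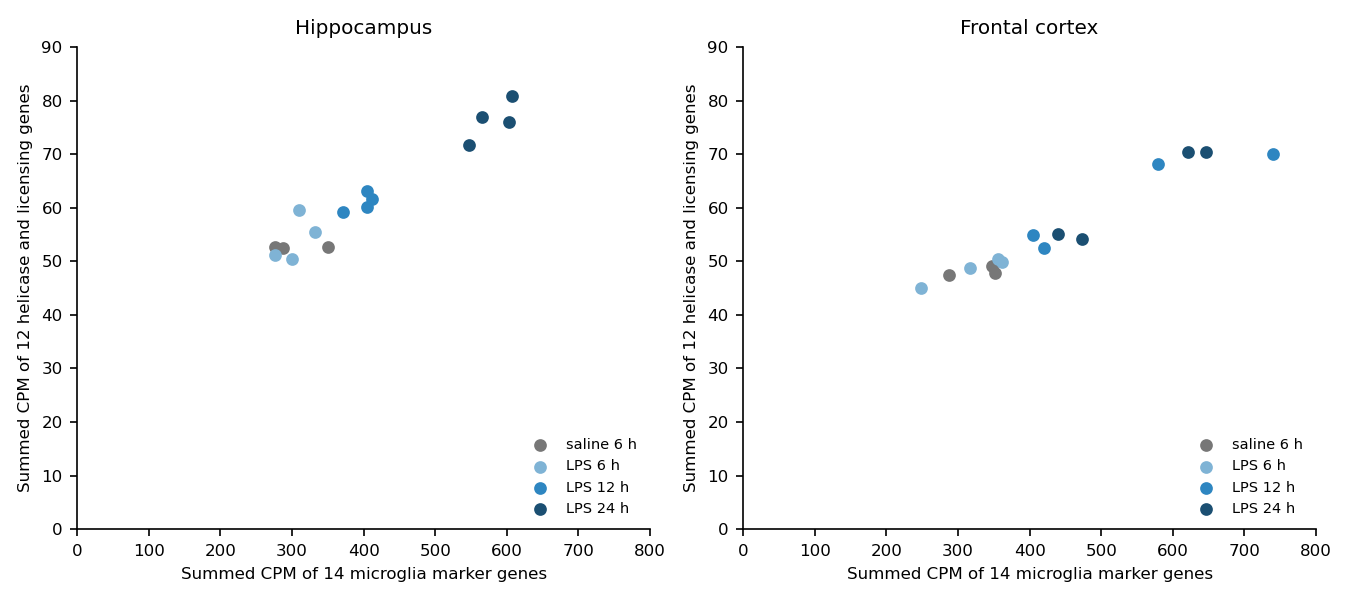
Summed CPM of the 14 microglia markers (x) and of the 12 licensing and helicase members (y), 1 point per library, by region and group. Both sums are highest in the 24 h hippocampal libraries and in 4 cortical libraries at 12 h and 24 h, at 68.1 to 70.4 CPM on the y axis.

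Markers of other cell types were measured beside these. For the hippocampal counts at 24 h, 6.76% of all genes tested were called higher and 6.6% lower. Of 14 tested markers of neural progenitors and new neurons, 2 were called higher (Nes 0.46, Sox4 0.39) and 1 lower (Tubb3 -0.26) in hippocampus at 24 h, and Dcx, a marker of new neurons, went from 8.83 to 10.35 CPM with no call. The whole list of these markers summed to less at 24 h (415.6 CPM) than after saline (443.4 CPM). Oligodendrocyte precursor markers summed to 290.7 CPM after saline and 283.2 at 24 h, with 2 of 11 called higher and 1 lower. Endothelial markers summed to 203.0 and 242.8 CPM, with 3 of 10 higher. Blood neutrophil and monocyte markers were highest at 6 h (1.82 after saline, 11.03 at 6 h, 9.07 at 12 h and 7.04 at 24 h, as summed CPM). Of 6 of them tested, 4 were called higher at each of the 3 times (66.7%), with medians of 4.45, 4.09 and 3.62, beside 512, 1049 and 1168 of all 17289 genes called higher. The rest of these 12 markers were below the filter, and 3 of the 12 had no reads in hippocampus after saline. The 6 may therefore lean toward genes that are high after LPS. Lymphocyte markers summed to 0.564 and 0.7678 CPM, with Cd3e at 0 in every hippocampal library. The part of these cells was not tested.

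Outside the 49 genes, other genes of the cycle were taken from 4 lists, given here beside the share of all genes called. Of 29 tested genes of licensing and the fork, 4 were called higher in hippocampus at 24 h (13.8%, against 6.76% of all genes) and none lower: Pole2 (1.69 ± 0.37), a subunit of the leading-strand polymerase, Timeless (0.66), Rfc3 (0.55) and Prim2 (0.45). Timeless, a fork protection factor, was also called at 6 h in both regions (0.83 and 0.81). Of 30 genes of mitosis and cytokinesis, Smc2 (0.53) and Stmn1 (0.25) were higher (6.67%, a share near the background of 6.76%) and Anln (-0.83) lower at 24 h. In the cortex at 12 h, the microtubule depolymerase Kif2c (2.23) led 3 higher (9.38%, against 4.13% of all genes) and 1 lower of 32.

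Of 21 G1, E2F and RB family genes, 3 were higher in hippocampus at 24 h (14.3%, against 6.76%) and none lower: Rbl1 (1.42 ± 0.23), Cdk2 (1.02 ± 0.24), the partner of cyclin E, and Cdk6 (0.47). Ccnd1, cyclin D1, was called at 6 h (0.45) and 12 h (0.37) but stood at 0.04 at 24 h, and Ccnd2 was not called at any time (0.20, 0.13 and 0.03). The CDK inhibitor gene Cdkn1a (p21) fell at every hippocampal time, with changes of -1.12 ± 0.25 (adjusted p 0.0209), -1.17 ± 0.25 (0.00808) and -1.52 ± 0.25 (0.00153), from 24.3 CPM after saline to 11.2, 10.8 and 8.50. In the cortex it was called lower at 12 h (-1.01) and 24 h (-0.86) and not at 6 h (-0.61, adjusted p 0.0948). Of the 20 tested inhibitor, p53 target and arrest genes, 2 were lower in hippocampus at 24 h, Cdkn1a and Sesn1 (-0.30), where 6.6% of all genes were called lower, and 1 was higher, Btg1 (0.24).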

How the data were processed

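The deposited table holds whole-number read counts per gene, the authors' own, for 30 libraries. Poly(A)-selected, stranded libraries were sequenced as paired reads of 150 bp, per the labels' protocols. The submitters' processing notes name STAR 2.6.0a, Trim Galore 0.4.1, DESeq2, FastQC and the build GRCm38 (mm10). The sources used here give neither the counter nor its strand setting or annotation. A hippocampal saline library that the submitters had left out was not analysed here.

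Of 48820 Ensembl identifiers, 48058 (98.4%) matched a symbol in GENCODE M21, and entries without one held at most 0.2902% of a library. Totals of 16826882 to 33034295 counts set the precision, and intervals cover counting error only. No 2 libraries agreed within sampling noise.

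Libraries were grouped by region, treatment and time from the labels. The 15 libraries of a region were fitted together in edgeR 4.0.16 under R 4.3.3 (TMM scaling, then robust glmQLFit and glmQLFTest, on genes kept by filterByExpr at min.count 10 and min.total.count 15), testing 17289 genes in hippocampus and 17111 in cortex. A fit of all 30 (17650 genes) gave differences between regions. Two-sided p values were adjusted by the Benjamini-Hochberg method across all tested genes, and 0.05 was the threshold. The script was tested on simulated counts. CPM use TMM factors. For members with at most 30 saline reads, pooled counts per pooled total gave a ratio with an exact conditional 95% interval. Alternatives were limma-voom with quality weights (limma 3.58.1), DESeq2 1.42.0, its size factors in edgeR, scaling by library totals, a stricter filter or none, the compared groups alone, both regions in 1 fit, each library left out, hippocampus without mice A222 and A261, and the mouse as a block. For comparisons within a region the block was a limma-voom fit of all 30 libraries with a correlation of 0.11 within a mouse. For comparisons between regions it was a fixed effect in edgeR, on the 14 mice with both regions. The replicate is a mouse.

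Mouse codes in the labels link both regions of 14 mice. Over 14984 genes, deviations from the group means gave r from -0.088 to 0.271 between the 2 regions of each mouse (median 0.1, and above 0.1 in 7 of 14 mice).

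The members and gene lists were chosen with earlier results of these data known. Values in every library are given for members called in any comparison, up to 16 by smallest adjusted p, and always for Mki67, Top2a, Mcm2, Mcm5, Pcna, Cdk1, Rrm2 and Uhrf1. Of each other list, up to 4 called genes are named by size, at 24 h first, and always Cdkn1a, Ccnd1 and Ccnd2. The DNA damage response list is not reported here.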

Additional observations from a re-analysis of the deposited data

Results flagged for a closer look

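Among 108 groups of 4 libraries examined for 18 members, 3 held a library far from the other 3, where chance gives about 1 in 20. Mki67 in hippocampus 12 h after LPS stood at 0.367 CPM in mouse A261, whose library was also high in choroid plexus genes, and at 0.831 to 0.900 in the others. Cenpe in frontal cortex stood at 1.08 CPM in mouse A240 at 6 h, where the others were at 0.751 to 0.805, and at 1.66 CPM in mouse A260 at 12 h, where the others were at 0.817 to 0.944. None of these 3 values belongs to a called change.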

How the results depend on the processing

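Counts of called members in hippocampus were 13 to 21 at 24 h against saline and 16 to 24 at 24 h against 6 h over 10 other settings, where the main values were 17 and 22. Leaving out 1 library at a time gave 14 to 19 and 14 to 18. At 12 h the count of 3 became 1 without the libraries of mice A222 and A261 and 1 with both regions in 1 fit, and was 1 to 3 with a library left out (1 without A224). At 6 h the count of 0 became 3 with limma-voom. In frontal cortex the count of 4 at 12 h became 7 with library totals alone, 2 with the compared groups alone and 7 with both regions in 1 fit, and was 1 to 4 with a library left out. At 24 h the count of 4 became 7 with library totals alone and 7 with both regions in 1 fit, and was 2 to 5 with a library left out. At 24 h against 6 h the count of 3 became 6 with both regions in 1 fit, and was 0 to 5 with a library left out (5 without A278). The count of regional differences in response stayed at 0 at 6 h and 12 h in every setting, and at 24 h became 2 with limma-voom. Between the saline regions the count of 14 was 9 to 13 with a library left out (9 without cortical mouse A226). No called member reversed in these settings, and members that were not called were not followed through them. The cause of these shifts was not tested.

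With the mouse as a replicate block, the hippocampal counts were 0, 1 and 14 at the 3 times and 16 at 24 h against 6 h, the cortical ones 0, 7, 6 and 5, those of the regional differences 0, 0 and 0, and that between the saline regions 8. Scaling by library totals shifted the all-gene median log2 fold change by up to 0.078. It moved the share of calls that were higher, over all genes, from 49.2% to 66.1% (12 h), 50.6% to 68.6% (24 h) and 48.2% to 60.6% (24 h against 6 h) in hippocampus, and from 58.0% to 78.6%, 61.1% to 78.5% and 43.1% to 67.4% in cortex. For the regional differences it went from 41.2% to 23.5% at 12 h (30.0% with DESeq2 size factors) and from 54.5% to 36.4% at 24 h. Members with few reads are limited by depth. Their pooled ratios were recomputed only with each library left out in turn, and stayed within the printed intervals. The other alternatives were not applied to them.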
